A study of Mus musculus with 88 samples.

Results

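The SCCVII tumour was examined 6 h after a single dose of 50 Gy of gamma rays. The comparison uses 4 of the 88 arrays of the study, chosen by their titles: 2 arrays of SCCVII taken 6 h after 50 Gy, and 2 arrays of untreated SCCVII that belong to the gamma arm. SCCVII is labelled a squamous cell carcinoma that arose spontaneously in C3H/He mice, and here it grew as a transplant in the hind leg of C3H/HeNrs mice. The study also holds the carcinoma NR-S1 and the fibrosarcomas NFSa, which arose spontaneously, and #8520, which radiation had induced. Each tumour was given gamma rays, at 30 or 50 Gy, or carbon ions, at 30 Gy, and each beam's arm has untreated tumours of its own. Every group has 2 arrays, and RNA of whole tumours was labelled with Cy5 and measured on one-colour CodeLink arrays. The values are intensities in arbitrary units, and the medians of the 10 SCCVII arrays used lay between 1.04 and 1.06. No label states that the arrays of a group stem from different mice, and p-values here reflect only the spread between them, which may be technical. Log2 values of the 2 arrays at 50 Gy correlated at 0.998 over genes, and those of the 2 untreated arrays at 0.996. Their log2 difference had a standard deviation of 0.168 at 50 Gy and 0.216 in untreated tumours.

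Ionising radiation breaks both strands of DNA, and the kinases that sense the breaks stabilise the transcription factor p53 and stop the cell before mitosis. p53 then raises genes of cell cycle arrest, such as Cdkn1a, of its own feedback, such as Mdm2, and of cell death, such as Bbc3. Dying and damaged cells also release signals that raise chemokines and draw in leukocytes, and a tumour mass holds, besides cancer cells, blood vessels, fibroblasts, leukocytes and pieces of the tissue it grows in. In such bulk samples, fewer cells of a type and less RNA per cell cannot be told apart.

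The epithelial label was checked against 4 genes known from keratinocytes, picked after their values were seen. Sfn, a 14-3-3 protein of stratified epithelia, had 38.3 and 35.7 at 50 Gy, against 33.7 and 36.6 in untreated tumours, and the stress keratin Krt6a had 3.29 and 3.41, against 3.82 and 3.75. Krt5 and Krt14, the keratins that define basal cells, were near the low end of the scale, with 0.273 and 0.301 for Krt5 at 50 Gy and 0.316 and 0.300 in untreated tumours. Krt14 had 0.204 and 0.194 at 50 Gy and 0.175 and 0.190 in untreated tumours. None of these 4 genes passed the test, and for comparison the highest 1st percentile of any untreated or 6 h SCCVII array was 0.134, which is used below as the floor of measurement. The defining basal keratins were therefore close to that floor in both groups, while Sfn and Krt6a were well above it. Sfn is also a p53 target and stands in the list of arrest and feedback genes, not in that of keratinocyte genes. Of the 24 tested members of the keratinocyte list, 3 lay under the floor in both groups.

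After 50 Gy, 3084 of 13458 genes tested (22.9%) differed from untreated tumours at a Benjamini-Hochberg adjusted p under 0.05 in limma. Of these, 1777 were higher (13.2% of genes tested) and 1307 lower (9.71%), and the median log2 difference over all genes was 0.02. Under quantile normalization 1454 were higher and 1477 lower. A change of at least 1.5-fold was reached by 657 higher (4.88%) and 426 lower genes (3.17%), and a change of at least 2-fold by 296 higher (2.2%) and 72 lower genes (0.535%). The plot of gene lists shows which groups of genes lie on each side.

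**Figure D1:**
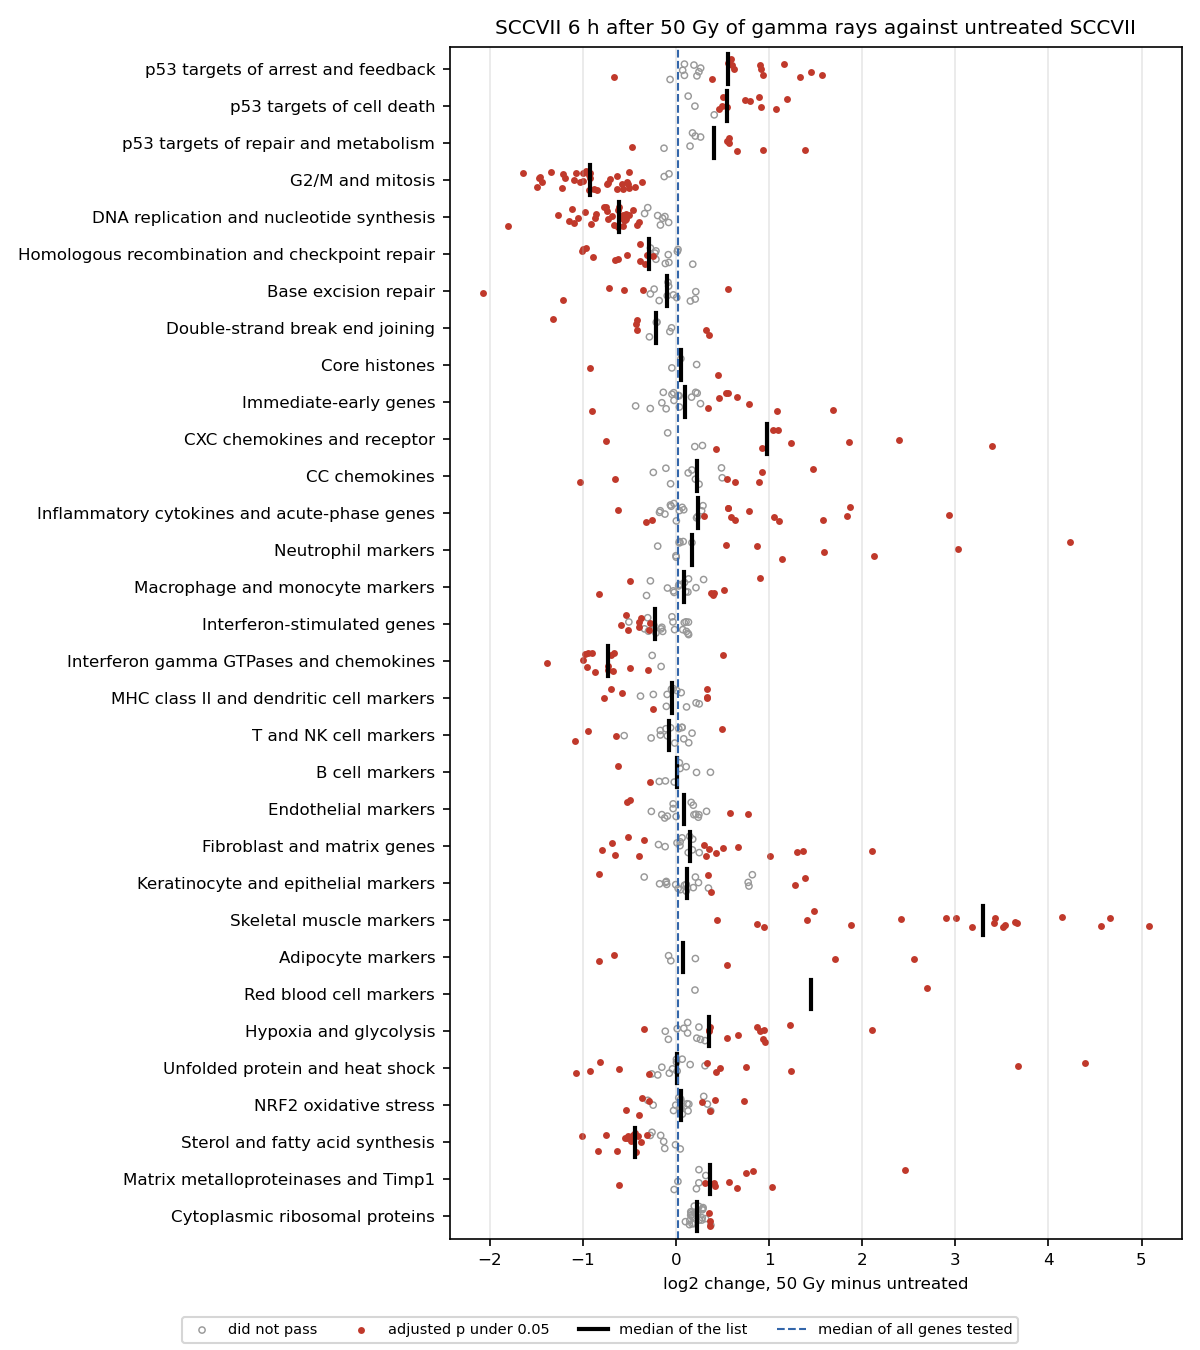
Log2 difference between SCCVII 6 h after 50 Gy of gamma rays and untreated SCCVII for each tested member of the gene lists, 1 point a gene, with filled points for genes that passed the test at an adjusted p under 0.05 and a bar for the median of the list. The list of G2/M and mitosis lies below 0 with a median of -0.92, that of skeletal muscle markers lies at a median of 3.30, and the median over all genes tested is 0.02.

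The untreated SCCVII arrays of the gamma arm differed widely from the untreated SCCVII arrays of the carbon arm, and each difference from untreated tumours below rests on those of the gamma arm. Between these untreated groups 6239 of 13460 genes (46.4%) passed the test, more than between 50 Gy and untreated. Skeletal muscle genes differed most: the median intensity of 20 muscle markers was 1.017 and 1.22 on the untreated arrays of the gamma arm, against 16.5 and 14.5 on those of the carbon arm. When the 50 Gy arrays were set against the carbon arm's untreated arrays alone, an alternative chosen after seeing the data, 6381 genes passed, 3974 higher (29.5%) and 2407 lower (17.9%), and 1558 of the 3084 genes passed again in the same direction. Counts of the lists below are given against those arrays too where they differ by over 1.5 times, to be read against these larger shares. What separates the arms was not tested.

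Targets of p53 rose. Of 21 tested genes of arrest and feedback, 12 rose and 1 fell, with a median log2 difference of 0.56. Cdkn1a, which encodes the kinase inhibitor p21 and carries p53-dependent arrest, had 139.8 and 127 at 50 Gy, against 43.3 and 55.2 in untreated tumours, a log2 difference of 1.45 ± 0.19 (SE, adjusted p = 2.56e-08). Mdm2, the ubiquitin ligase that degrades p53, had 12.5 and 11.1, against 4.96 and 4.44, a log2 difference of 1.33 ± 0.20 (adjusted p = 7.38e-07). Both genes lay higher on each irradiated array than on either untreated array. Ccng1, a cyclin induced by p53, had 34.9 and 35.7 at 50 Gy, against 11.3 and 12.5 in untreated tumours, a log2 difference of 1.57 ± 0.13 (adjusted p = 1.04e-14). Btg2, an antiproliferative gene, and Gadd45a, a stress sensor that slows entry into mitosis, rose by 1.16 ± 0.13 and 0.92 ± 0.10 on the log2 scale. The member that fell was Sesn1, a stress-induced regulator of growth signalling, with 6.27 and 6.23 at 50 Gy, against 9.73 and 10.1 in untreated tumours (log2 difference -0.67 ± 0.12).

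**Figure D2:**
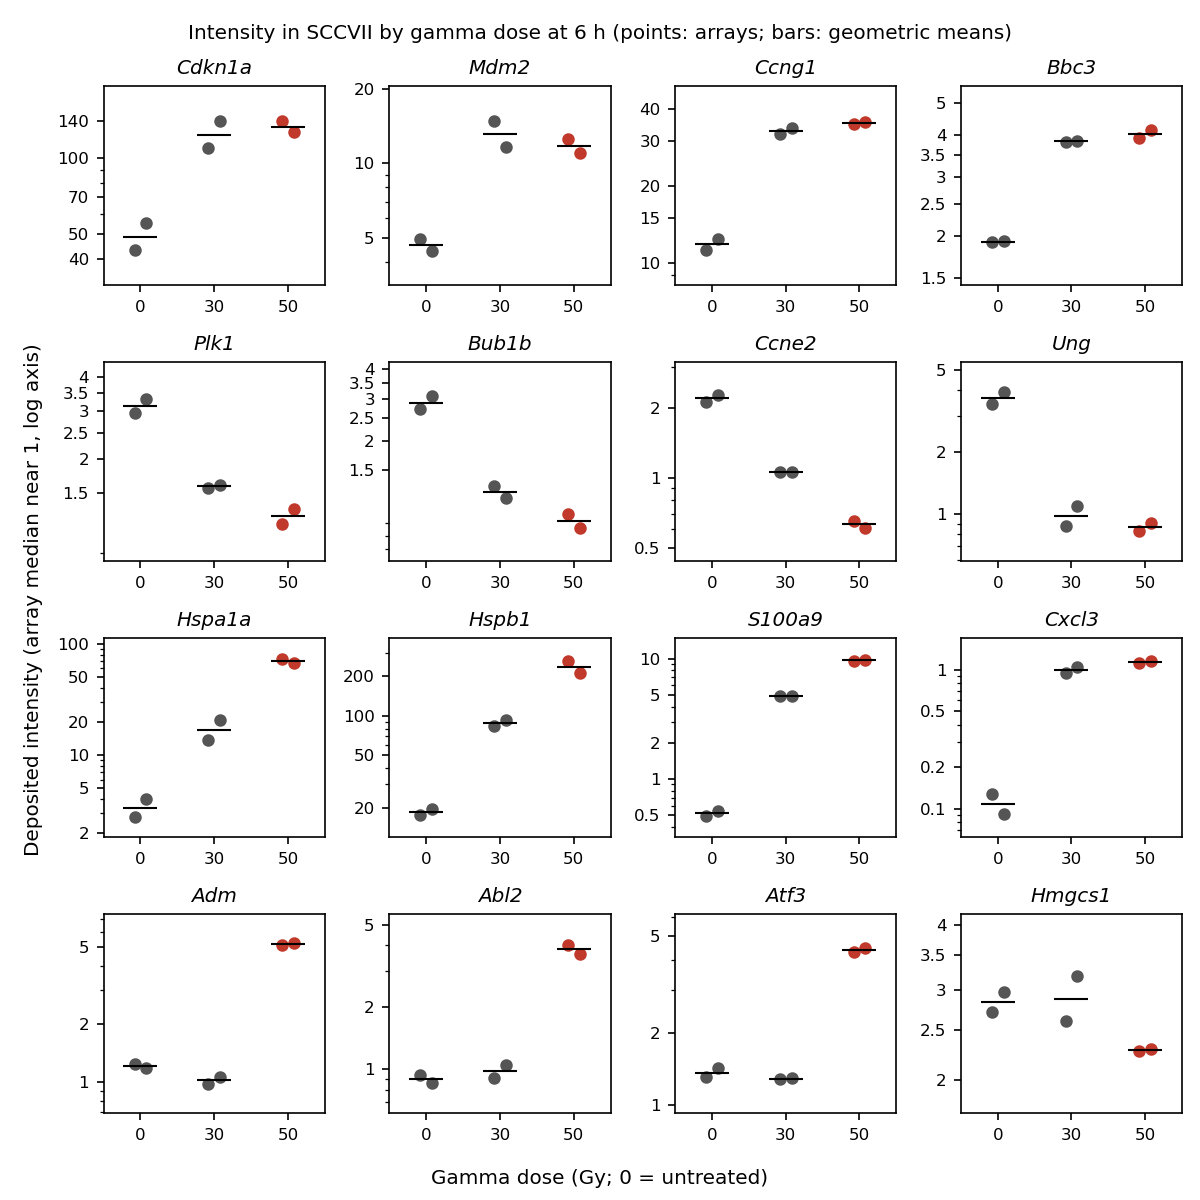
Intensity (log axis, arbitrary units) of 16 genes on each SCCVII array of the gamma arm at 0, 30 and 50 Gy, 1 point an array, with the 30 and 50 Gy arrays taken at 6 h. Cdkn1a, Ccng1 and Bbc3 are about level at 30 and 50 Gy, Plk1 and Ccne2 are lower at 50 Gy than at 30 Gy, and Adm, Abl2 and Atf3 are higher at 50 Gy than at 0 and 30 Gy.

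The death branch of p53 moved the same way: 10 of 13 tested members rose and none fell, with a median of 0.55. Bbc3, which encodes the BH3-only protein Puma, had 3.92 and 4.16 at 50 Gy, against 1.92 and 1.93 in untreated tumours (log2 difference 1.071 ± 0.09). Pmaip1, which encodes the related Noxa, had 2.78 and 2.83, against 1.23 and 1.23 (1.19 ± 0.10). Neither gene's groups overlapped. The death receptor Fas rose by 0.89 ± 0.19 and the nuclease gene Aen by 0.91 ± 0.15 on the kept probe. The other probe of Aen changed by 0.06. Among 12 p53 targets of repair and metabolism 6 rose and 1 fell. The xylulose reductase gene Dcxr had 29.2 and 28.8 at 50 Gy, against 10.8 and 11.4 in untreated tumours (1.38 ± 0.13), and the epoxide hydrolase gene Ephx1 rose by 0.94 ± 0.09. Ddb2, which recognises damage in nucleotide excision repair and is a p53 target in human cells, fell by 0.47 on the log2 scale, a call that was lost without untreated replicate 2 or against the untreated arrays of the carbon arm. Celf5, an RNA-binding protein, had 1.16 and 1.06 at 50 Gy, against 0.226 and 0.191 in untreated tumours, and its log2 difference was 2.42 ± 0.11 (adjusted p = 2.69e-25).

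Genes of G2 and mitosis fell almost without exception. Of 36 tested, 34 fell and none rose, and the median log2 difference was -0.92; the 2 that did not pass were Bub1 and Sgo1. Plk1, a kinase needed to enter mitosis, had 1.15 and 1.31 at 50 Gy, against 2.96 and 3.31 in untreated tumours, a log2 difference of -1.35 ± 0.11 (adjusted p = 2.06e-14). Bub1b, which encodes the spindle checkpoint kinase BubR1, had 0.985 and 0.863, against 2.70 and 3.08 (-1.65 ± 0.16, adjusted p = 4.15e-12). On both irradiated arrays these genes lay below both untreated arrays. Kif20a, a kinesin of cytokinesis, had 3.96 and 4.01 at 50 Gy, against 11.3 and 11.3 in untreated tumours (-1.50 ± 0.11). Kif23, another kinesin of the dividing cell's midzone, had 0.711 and 0.636, against 1.69 and 2.06 (-1.47 ± 0.16). Ccna2, the cyclin of S phase and G2, had 32.3 and 31.4, against 62.9 and 73.3 (-1.09 ± 0.12). Outside the list, Fam83d, a protein of the mitotic spindle, was among the 12 named genes that fell most, with 1.72 and 1.72 at 50 Gy, against 5.85 and 5.03 in untreated tumours (-1.66 ± 0.14).

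Promoters of mitotic genes are known for CCAAT boxes and for a cell cycle homology region, TTTGAA. A repressor complex acts through the homology region in arrested cells. The promoters of Plk1, Bub1b and Kif23 are shown because these genes were among those of the list that fell. The sequences are from RefSeq (GRCm38.p6) and run from 125 bases before to 50 after the transcription start. They lie at chr7:122159310-122159484 (plus strand), chr2:118598086-118598260 (plus strand) and chr9:61946750-61946924 (minus strand), and capitals mark TTTGAA and CCAAT or its reverse complement ATTGG.
Plk1: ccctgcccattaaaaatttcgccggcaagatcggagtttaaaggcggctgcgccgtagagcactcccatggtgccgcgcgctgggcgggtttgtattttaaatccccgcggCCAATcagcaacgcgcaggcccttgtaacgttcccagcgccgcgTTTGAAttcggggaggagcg
Bub1b: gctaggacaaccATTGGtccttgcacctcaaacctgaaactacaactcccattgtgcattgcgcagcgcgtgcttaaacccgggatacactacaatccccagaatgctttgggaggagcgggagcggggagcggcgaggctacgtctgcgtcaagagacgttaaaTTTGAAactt
Kif23: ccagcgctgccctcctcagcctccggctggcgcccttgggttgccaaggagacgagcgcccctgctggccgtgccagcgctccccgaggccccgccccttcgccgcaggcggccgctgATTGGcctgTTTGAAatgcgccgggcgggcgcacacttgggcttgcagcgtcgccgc
TTTGAA, searched on both strands, begins at base 31 after the start in Plk1, base 41 in Bub1b and base 3 in Kif23. The shares given next cover the whole promoter sequences, which begin further before the start than the stretches shown. TTTGAA was found in 21 of the 29 tested list genes that have a promoter in the table. It was found in 20.2% of all 27025 genes of the table and 17.9% of its 32851 promoters. CCAAT on either strand was found in 25 of the 29, in 41.1% of all genes and in 37.4% of all promoters. The matches describe these letters and are no measure of binding.

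Genes of DNA replication and nucleotide synthesis fell too, 30 of 37 tested with none higher and a median of -0.61. Ccne2, the cyclin that starts S phase, had 0.654 and 0.606 at 50 Gy, against 2.13 and 2.27 in untreated tumours, a log2 difference of -1.80 ± 0.13 (adjusted p = 7.14e-17). Mcm7, a subunit of the replicative helicase, had 3.41 and 2.85, against 7.23 and 7.74 (-1.26 ± 0.16), and Rrm1, a subunit of ribonucleotide reductase, had 0.299 and 0.291, against 0.656 and 0.648 (-1.15 ± 0.16). Their irradiated and untreated arrays did not overlap.

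Repair genes followed by class. In base excision repair 5 of 17 fell and 1 rose, counts that became 3 and 5 against the carbon arm's untreated arrays. Ung, the glycosylase that takes uracil out of DNA, had 0.830 and 0.904 at 50 Gy, against 3.41 and 3.89 in untreated tumours, a log2 difference of -2.07 ± 0.11 (adjusted p = 6.66e-23). Neil3, a glycosylase of replicating cells, fell by 1.22 on the log2 scale. In homologous recombination and checkpoint repair 12 of 22 fell and none rose, although 7 fell without 50 Gy replicate 1 or without untreated replicate 2. Chek1, the checkpoint kinase of stalled forks, had 4.29 and 3.83, against 8.37 and 7.81 (-0.996 ± 0.09). Outside the list, Fignl1, an ATPase of recombination repair, had 1.32 and 1.299, against 5.67 and 3.32 (-1.73 ± 0.25). In end joining 4 of 11 fell and 2 rose. Xrcc5, which encodes the Ku80 subunit, had 0.602 and 0.531 at 50 Gy, against 1.84 and 1.08 in untreated tumours (-1.32 ± 0.19). Without 50 Gy replicate 2 or untreated replicate 2, or against the carbon arm's untreated arrays, 2 end joining genes fell, and without replicate 1 of either group 1 rose.

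Of 23 tested genes of unfolded protein and heat shock responses 7 rose and 5 fell, with a median of 0.01. Those that rose were the chaperone genes Hspa1a, Hspb1, Hspa1b, Hsp90aa1 and Dnajb1 and the stress genes Ddit3 and Chac1. Those that fell were Sdf2l1, Herpud1, Xbp1, Pdia4 and the chaperone gene Hsph1, while the chaperone genes Hspd1, Hspe1 and Bag3 did not pass. Hspa1a, the inducible Hsp70 chaperone, had 73.7 and 66.9 at 50 Gy, against 2.77 and 4.01 in untreated tumours, a log2 difference of 4.40 ± 0.22 (adjusted p = 8.89e-24). Hspb1, the small heat shock protein Hsp25 of mice, had 263 and 213, against 17.6 and 19.5 (3.67 ± 0.12, adjusted p = 2.86e-31). Hspa1b, a near-identical neighbour of Hspa1a, had 214.5 and 199, against 76.3 and 100.4 (1.24 ± 0.14); whether the probes separate these genes was not tested. Against the carbon arm's untreated arrays 12 rose and 5 fell. Sdf2l1, a chaperone of the endoplasmic reticulum, had 15.8 and 15.97 at 50 Gy, against 31.9 and 35.02 in untreated tumours (-1.07 ± 0.09), and Herpud1, of protein degradation there, fell by 0.82 on the log2 scale. Heat shock genes are known for elements of inverted GAA units, and the promoters of the 2 members that rose most are shown for these. They lie at chr17:34972107-34972281 (minus strand) and chr5:135887794-135887968 (plus strand) (RefSeq, GRCm38.p6, 125 bases before to 50 after the start), with GAANNTTC in capitals.
Hspa1a: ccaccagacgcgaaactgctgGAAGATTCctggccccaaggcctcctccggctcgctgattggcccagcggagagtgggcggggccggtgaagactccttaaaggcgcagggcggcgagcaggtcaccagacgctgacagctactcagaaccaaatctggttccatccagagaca
Hspb1: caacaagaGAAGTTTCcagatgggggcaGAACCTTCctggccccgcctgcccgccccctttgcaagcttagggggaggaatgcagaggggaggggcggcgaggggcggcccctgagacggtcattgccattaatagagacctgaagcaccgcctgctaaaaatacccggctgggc
GAANNTTC, which reads the same on both strands, begins at base -104 in Hspa1a and at bases -117 and -97 in Hspb1. It was found in 7 of 21 list genes with a promoter in the table and in 9.04% of all genes and 7.86% of all promoters. These shares too cover the whole promoter sequences, which begin further before the start than the stretches shown.

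Chemokines that draw neutrophils rose strongly. Of 12 CXC chemokine and receptor genes 8 rose and 1 fell, with a median of 0.98. Cxcl3, a ligand of the receptor Cxcr2, had 1.12 and 1.14 at 50 Gy, while both untreated arrays, at 0.127 and 0.0916, lay under the floor, so that it was at least 8.46-fold higher (limma adjusted p = 2.01e-29). Cxcl2, another ligand of that receptor, had 4.59 and 3.91, against 0.692 and 0.941, a log2 difference of 2.39 ± 0.16 (adjusted p = 3.32e-18). For both chemokines the irradiated arrays stood clear of the untreated ones. Ppbp rose by 1.86 ± 0.20 and Cxcl5 by 1.24 ± 0.10, and Cxcr4, the receptor of Cxcl12, had 51.8 and 47.6 at 50 Gy, against 23.9 and 22.6 in untreated tumours (1.10 ± 0.13). Cxcl12 itself, a stromal chemokine, had 16.04 and 15.9, against 26.4 and 27.5 (-0.76 ± 0.13), and it was the member that fell. The promoters of Cxcl2 and Cxcl3 are shown because both genes are known targets of NF-kB. They lie at chr5:90903774-90903948 (plus strand) and chr5:90785976-90786150 (plus strand) (RefSeq, GRCm38.p6), and capitals mark the letters GGG, any 2 bases and TTTCC.
Cxcl2: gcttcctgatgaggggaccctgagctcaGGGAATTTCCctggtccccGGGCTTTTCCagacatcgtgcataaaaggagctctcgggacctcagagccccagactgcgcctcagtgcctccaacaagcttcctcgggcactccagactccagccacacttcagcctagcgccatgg
Cxcl3: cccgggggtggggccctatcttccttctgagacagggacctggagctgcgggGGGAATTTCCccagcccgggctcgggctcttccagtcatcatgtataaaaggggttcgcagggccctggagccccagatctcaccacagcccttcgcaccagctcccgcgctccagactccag
This motif, searched on both strands, begins at bases -97 and -78 in Cxcl2 and at base -73 in Cxcl3. It was found in 3 of 10 list genes with a promoter in the table and in 1.89% of all genes and 1.63% of all promoters. Again the shares cover the whole promoter sequences, which begin further before the start than the stretches shown.

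Among 16 CC chemokines 5 rose and 2 fell. Ccl11, the eosinophil chemokine eotaxin, had 1.01 and 0.803 at 50 Gy, against 0.331 and 0.321 in untreated tumours (1.47 ± 0.20), while Ccl12, a monocyte chemokine of mice, had 38.2 and 33.7, against 63.8 and 84.2 (-1.03 ± 0.12). Against the carbon arm's untreated arrays 4 rose and 5 fell. Of 29 inflammatory cytokine and acute-phase genes 12 rose and 3 fell, and the number that fell was 1 without either 50 Gy replicate or without untreated replicate 2. Il6, the cytokine of the acute phase, had 2.23 and 2.27 at 50 Gy, against 0.617 and 0.640 in untreated tumours, a log2 difference of 1.84 ± 0.11 (adjusted p = 5.29e-20). Ptx3, a soluble pattern receptor, had 0.802 and 0.869, while both untreated arrays, at 0.108 and 0.111, lay under the floor, so that it was at least 6.23-fold higher. The acute-phase gene Saa3 had 3.94 and 4.11, against 0.994 and 1.22 (1.87 ± 0.15). Il11, Il33 and Il1b rose by 1.58, 1.10 and 1.05 on the log2 scale. Ccrl2, a non-signalling chemokine receptor, had 3.75 and 3.75 at 50 Gy and 0.610 on the single untreated array that gave a value (2.62 ± 0.20).

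Neutrophil genes split. S100a9, a subunit of the granulocyte protein calprotectin, had 9.58 and 9.86 at 50 Gy, against 0.493 and 0.543 in untreated tumours, a log2 difference of 4.23 ± 0.11 (adjusted p = 2.09e-35). Its partner S100a8 had 7.95 and 8.01, against 0.947 and 1.016 (3.02 ± 0.10), and Retnlg, a resistin-like gene of granulocytes, had 7.62 and 7.51, against 1.75 and 1.70 (2.13 ± 0.11). In all, 7 of 15 tested members rose and none fell, and the sum of their intensities was 96.2 and 98.0 at 50 Gy, against 52.0 and 52.6 in untreated tumours. Csf3r, the receptor of the granulocyte growth factor, did not pass, with 1.09 and 0.964 at 50 Gy and 0.991 and 0.950 in untreated tumours. Ngp, a protein of neutrophil granules, did not pass either, with 0.735 and 0.730 at 50 Gy and 0.739 and 0.726 in untreated tumours. S100a9 was also higher in untreated tumours of the carbon arm, at 2.62 and 3.28. Other leukocyte lists moved little: 5 of 21 macrophage and monocyte genes rose and 2 fell (4 and 6 against the carbon arm's untreated arrays, and 3 that rose without untreated replicate 1, 1 that fell without 50 Gy replicate 2). Of 18 T and NK cell genes 1 rose and 3 fell, with 3 and 7 against the carbon arm's arrays. The T and NK cell gene that rose was Cd3g, which was not called without 50 Gy replicate 1 or untreated replicate 1. Ccr2, the monocyte receptor, had 11.99 and 11.96 at 50 Gy, against 21.6 and 20.9 in untreated tumours (-0.83 ± 0.13).

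Genes of the interferon gamma response fell. Of 17 tested GTPases and chemokines that interferon gamma induces, 14 fell and 1 rose, with a median of -0.73. Cxcl10, a chemokine for T cells, had 10.04 and 9.74 at 50 Gy, against 23.95 and 28.1 in untreated tumours, a log2 difference of -1.39 ± 0.11 (adjusted p = 2.74e-15). Igtp, an immunity-related GTPase, had 7.94 and 7.94, against 15.3 and 15.2 (-0.94 ± 0.10), and Gbp4, a guanylate-binding protein, had 9.01 and 7.80, against 14.98 and 18.05 (-0.97 ± 0.09). In each, both irradiated arrays were below both untreated arrays. The gene that rose was Ido1, an enzyme of tryptophan breakdown, with 0.747 and 0.721, against 0.470 and 0.574 (0.50 ± 0.13); it was not called without untreated replicate 1. Of 28 other interferon-stimulated genes 8 fell and none rose, but leaving out any of the 4 arrays left 3 to 5 that fell, and against the carbon arm's untreated arrays 7 rose and 7 fell.

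Stress and metabolic genes were mixed. Of 24 immediate-early genes 8 rose and 1 fell, against 16 and 2 with the carbon arm's untreated arrays, and 2 fell without 50 Gy replicate 1 or untreated replicate 1. Atf3, a stress-induced repressor of transcription, had 4.31 and 4.46 at 50 Gy, against 1.31 and 1.43 in untreated tumours (1.68 ± 0.11, adjusted p = 4.60e-19), and Ier3, a survival gene, had 29.3 and 31.01, against 13.4 and 14.9 (1.09 ± 0.10). Egr1, a growth factor-induced factor, had 0.587 and 0.609, against 1.15 and 1.09 (-0.90 ± 0.13), but was not lower than in the carbon arm's untreated tumours, which had 0.507 and 0.515. Of 23 genes of hypoxia and glycolysis 12 rose and 1 fell, with a median of 0.35, against 19 and 0 with the carbon arm's untreated arrays. The one that fell, Aldoc, was called only with all 4 arrays or without untreated replicate 1. Adm, which encodes the vessel-dilating peptide adrenomedullin, had 5.14 and 5.23 at 50 Gy, against 1.24 and 1.18 in untreated tumours (2.10 ± 0.12, adjusted p = 1.29e-21). Vegfa, the growth factor of vessels, had 34.4 and 30.5, against 16.4 and 17.4 (0.94 ± 0.13). Of 22 genes of sterol and fatty acid synthesis 15 fell and none rose, with a median of -0.44, and 8 fell without 50 Gy replicate 2 and 9 without untreated replicate 2. Elovl6, a fatty acid elongase, had 22.2 and 22.2, against 38.1 and 41.3 (-0.84 ± 0.10), and Sqle, the squalene epoxidase, fell by 0.75 on the log2 scale. Srebf1, the regulator of fatty acid genes, fell by 1.01 on the kept probe, but its probes disagreed in sign.

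Skeletal muscle genes showed the largest differences among the named genes. All 20 tested markers were higher at 50 Gy, with a median log2 difference of 3.30, and 10 of the 12 named genes that rose most were Pvalb, Tnnt3, Pgam2, Tnnc2, Tekt1, Cox8b, Thbs4, Hjv, Ckm and Mybpc2, most of them muscle genes. Pvalb, a calcium buffer of fast fibres, had 37.8 and 34.0 at 50 Gy, against 1.04 and 1.08 in untreated tumours (5.08 ± 0.11, adjusted p = 4.74e-40). Tnnt3, fast troponin T, had 46.4 and 45.6, against 1.74 and 1.90 (4.66 ± 0.12). The low side of this difference lies in the untreated arrays of the gamma arm. The untreated arrays of the carbon arm had 38.3 and 39.1 for Pvalb, and against them 3 of the 20 markers were higher and 14 lower. Tekt1, a gene of cilia, lay under the floor on both untreated arrays and was at least 3.64-fold higher at 50 Gy, so that its place among the 12 rests on values under the floor. How much muscle each sample held was not tested.

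**Figure D3:**
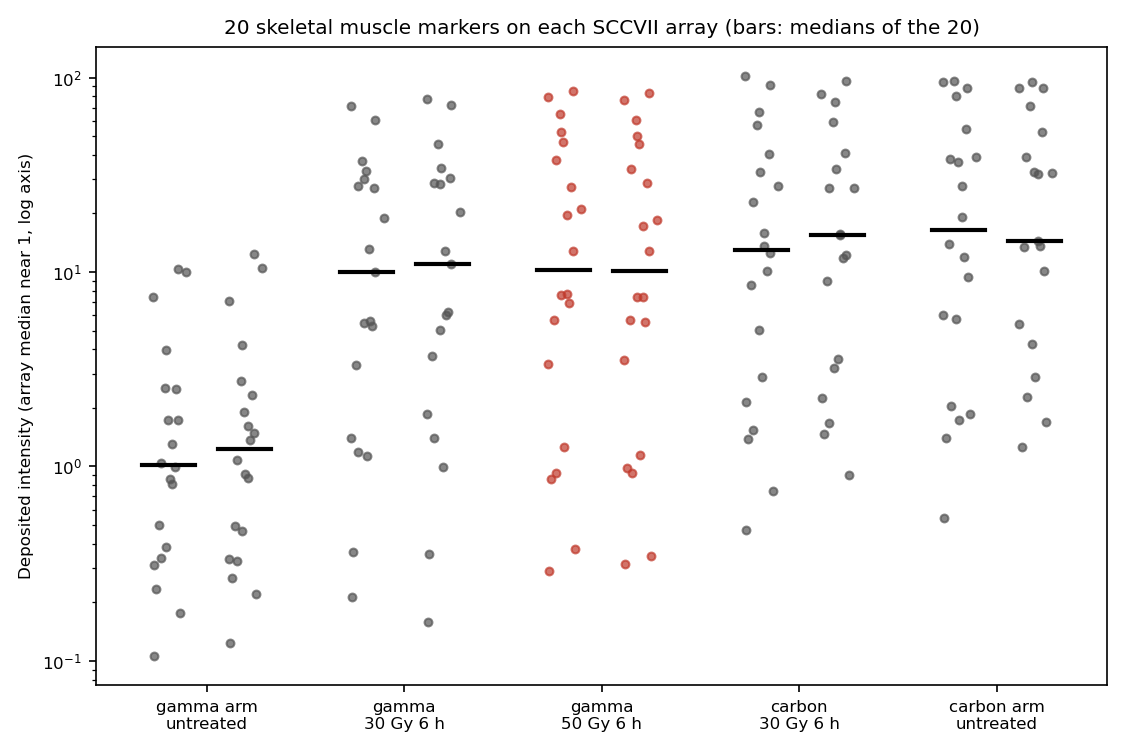
Intensity (log axis, arbitrary units) of each of 20 skeletal muscle markers on the SCCVII arrays, with the groups in the order untreated, 30 Gy and 50 Gy of the gamma arm, then 30 Gy and untreated of the carbon arm, and a bar for the median. Medians are 10.3 and 10.1 at 50 Gy, 1.017 and 1.22 in untreated tumours of the gamma arm and 16.5 and 14.5 in untreated tumours of the carbon arm.

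Stromal genes were mixed and depended on the untreated arm. Of 27 fibroblast and matrix genes 10 rose and 6 fell, but 6 rose and 9 fell against the carbon arm's untreated arrays. Mfap5, a microfibril protein, had 9.68 and 8.62 at 50 Gy, against 1.96 and 2.29 in untreated tumours of the gamma arm (2.11 ± 0.11), and the carbon arm's untreated tumours had 18.3 and 20.3. Lox, the collagen crosslinker, had 1.92 and 2.05 at 50 Gy, against 0.778 and 0.843 in untreated tumours of the gamma arm (1.296 ± 0.11) and 3.77 and 3.61 in those of the carbon arm. Of 16 genes of matrix metalloproteinases and related proteins 9 rose and 1 fell, against 8 and 4 with the carbon arm's untreated arrays. Mmp3, stromelysin, had 2.64 and 2.95, against 0.536 and 0.480 (2.46 ± 0.10), and the untreated arrays of the carbon arm had 2.92 and 2.39. Of 24 keratinocyte genes 4 rose and 1 fell, with 5 and 10 against the carbon arm's arrays. Leaving out either 50 Gy replicate or untreated replicate 1 left 1 or 2 that rose, and 2 fell without 50 Gy replicate 1.

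The doses were compared by setting 50 Gy against 30 Gy of gamma rays at the same 6 h, where untreated arrays play no part. Each dose is a single group of 2 arrays, so that dose and a difference between the tumours sampled cannot be told apart. Of 13461 genes 1033 (7.67%) differed, 672 higher (4.99%) and 361 lower (2.68%) at 50 Gy, with a median over all genes of -0.02. At least a 2-fold change was reached by 74 higher (0.55%) and 8 lower genes (0.0594%). The count was 602 and 596 without 50 Gy replicates 1 and 2, and 563 without 30 Gy replicate 1. Both responses share the same untreated arrays, so their values are only given side by side. Of 20 skeletal muscle markers 12 were higher at 50 Gy than at 30 Gy and 1 lower, with a median of 0.40, and their median intensity was 10.3 and 10.1 at 50 Gy, against 9.97 and 11.03 at 30 Gy. The part of muscle in the differences between the doses was not tested.

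**Figure D4:**
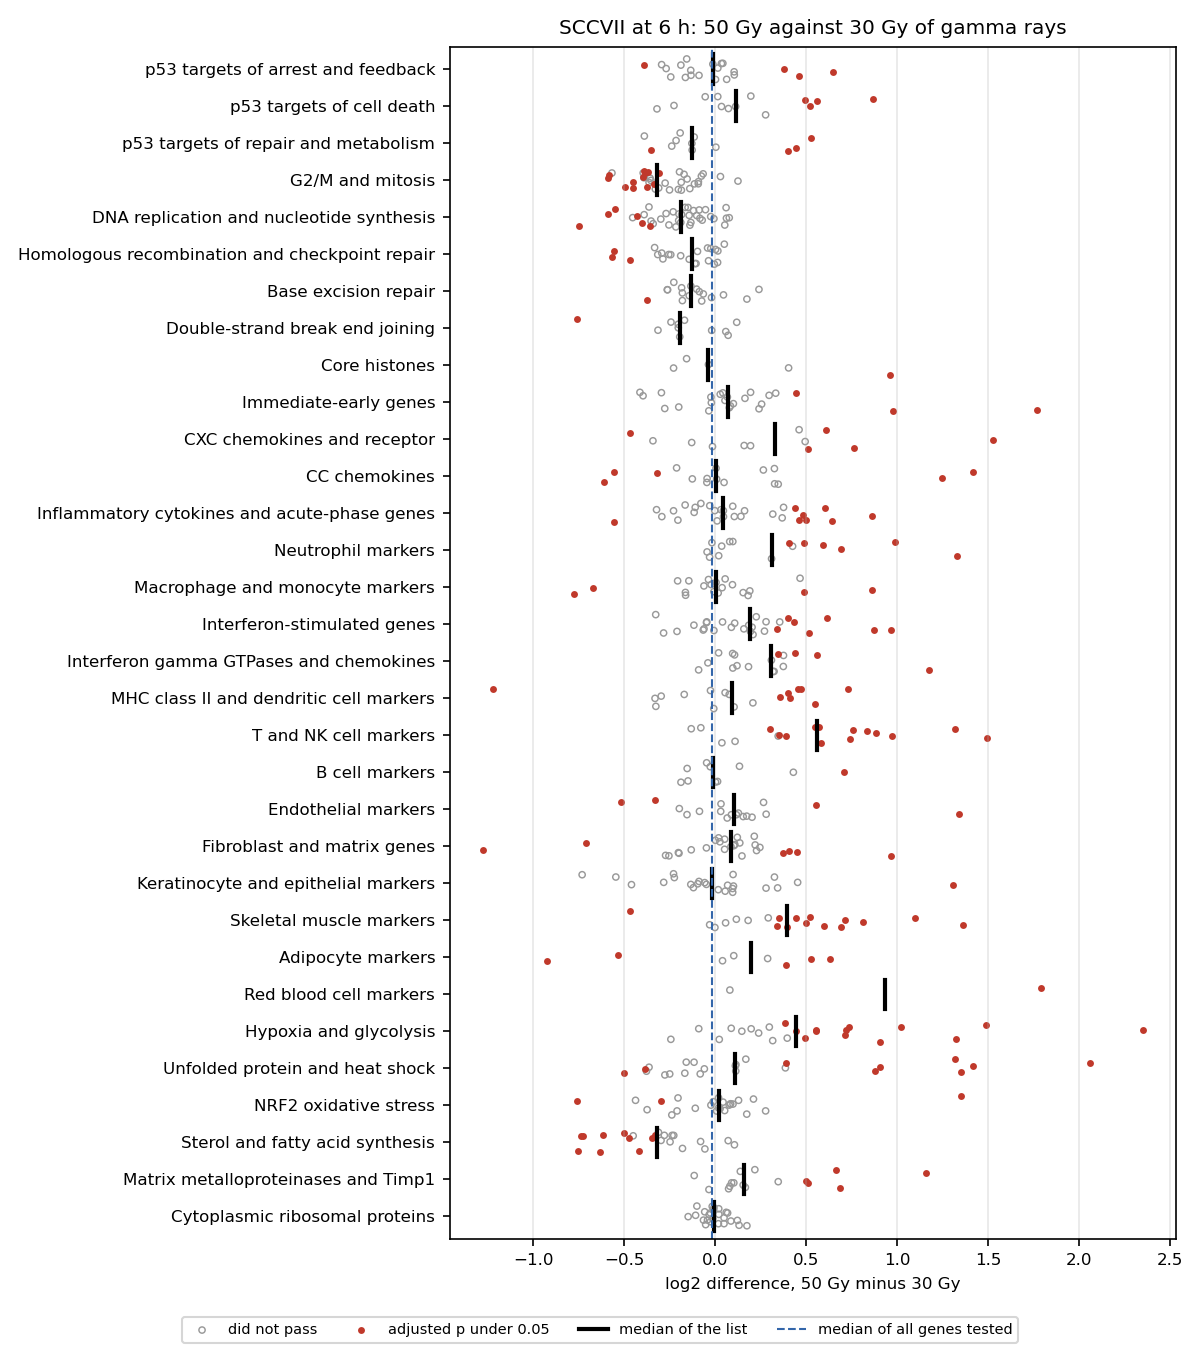
Log2 difference between 50 Gy and 30 Gy of gamma rays at 6 h in SCCVII for each tested member of the gene lists, 1 point a gene, with filled points for genes at an adjusted p under 0.05 and a bar for the median of the list. Hypoxia and glycolysis lies at a median of 0.45 and T and NK cell markers at 0.56, while G2/M and mitosis lies at -0.32 and sterol and fatty acid synthesis at -0.32.

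Arrest genes of p53 were at a like level at both doses, with 3 of 21 higher and 1 lower at 50 Gy. Cdkn1a had 43.3 and 55.2 without radiation, 110.04 and 139.7 at 30 Gy and 139.8 and 127 at 50 Gy. Its difference between the doses was 0.10 ± 0.19 (adjusted p = 0.836). A p above the threshold does not show that the levels were equal. In the death branch 4 of 13 were higher at 50 Gy and none lower. They were Trp53i11, Tnfrsf18 and Dapk1, by 0.52, 0.56 and 0.50 on the log2 scale, and Pmaip1, with 1.23 and 1.23 untreated, 1.49 and 1.58 at 30 Gy and 2.78 and 2.83 at 50 Gy, a difference of 0.87 ± 0.10 (adjusted p = 6.58e-10). Celf5 was lower at the higher dose, with 0.226 and 0.191 untreated, 1.58 and 1.71 at 30 Gy and 1.16 and 1.06 at 50 Gy (adjusted p = 0.000227).

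Mitotic genes were lower at the higher dose for 12 of 36 members, with none higher and a median of -0.32. Plk1 had 2.96 and 3.31 untreated, 1.57 and 1.61 at 30 Gy and 1.15 and 1.31 at 50 Gy, and its difference between the doses was -0.37 ± 0.11 (adjusted p = 0.0309). Ccne2 had 2.13 and 2.27 untreated, 1.06 and 1.06 at 30 Gy and 0.654 and 0.606 at 50 Gy (-0.75 ± 0.13, adjusted p = 3.71e-05). Both genes thus stepped down with each dose. Ung, with 3.41 and 3.89 untreated, 0.876 and 1.10 at 30 Gy and 0.830 and 0.904 at 50 Gy, was not called between the doses (adjusted p = 0.370).

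Some genes were raised at 50 Gy without having risen at 30 Gy. Adm had 1.24 and 1.18 untreated, 0.971 and 1.065 at 30 Gy and 5.14 and 5.23 at 50 Gy, the largest difference between the doses among the named genes at 2.35 ± 0.12 (adjusted p = 7.12e-22). Abl2, a tyrosine kinase of the cytoskeleton, had 0.942 and 0.861 untreated, 0.912 and 1.05 at 30 Gy and 4.02 and 3.63 at 50 Gy (1.96 ± 0.12). Edn2, which encodes the peptide endothelin 2, had 0.614 and 0.622, then 0.540 and 0.670, then 2.06 and 2.39 at 0, 30 and 50 Gy (1.88 ± 0.17). In each of these the 30 Gy arrays lay within or beside the untreated range, and the 50 Gy arrays lay far above. Atf3 followed them, with 1.31 and 1.43, then 1.28 and 1.295, then 4.31 and 4.46 (1.77 ± 0.11). Of 23 hypoxia and glycolysis genes 13 were higher at 50 Gy than at 30 Gy and none lower, and 4 had been lower at 30 Gy than in untreated tumours, where 6.48% of all genes were lower. Bnip3, a mitochondrial protein induced in hypoxia, had 31.7 and 29.4 untreated, 26.2 and 20.9 at 30 Gy and 62.0 and 55.2 at 50 Gy (1.32 ± 0.11). Trib3, a stress-induced pseudokinase, had 3.11 and 3.75, then 1.28 and 1.48, then 3.35 and 3.503 at 0, 30 and 50 Gy (1.32 ± 0.10).

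Of the 23 unfolded protein and heat shock genes 7 were higher at 50 Gy than at 30 Gy and 2 lower, with a median of 0.11. Hspa1a had 2.77 and 4.01 untreated, 13.6 and 20.8 at 30 Gy and 73.7 and 66.9 at 50 Gy, a difference of 2.06 ± 0.22 between the doses (adjusted p = 2.27e-10). Hspb1 had 17.6 and 19.5, then 84.0 and 93.3, then 263 and 213 at 0, 30 and 50 Gy (1.42 ± 0.12). Cxcl2 had 0.692 and 0.941, then 1.61 and 1.35, then 4.59 and 3.91 (1.52 ± 0.16), while Cxcl3, at 1.12 and 1.14 after 50 Gy, against 0.939 and 1.04 after 30 Gy, was not called (adjusted p = 0.409). T and NK cell genes were higher at 50 Gy than at 30 Gy for 13 of 18 members, with none lower. Prf1, the perforin of killer cells, had 3.82 and 4.22 untreated, 1.068 and 1.31 at 30 Gy and 3.503 and 3.17 at 50 Gy (1.49 ± 0.20). For this list the low values were those of 30 Gy: 15 of 18 members had fallen there against untreated tumours.

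Genes lower at 50 Gy than at 30 Gy included 10 of 22 sterol and fatty acid genes, with none higher. Cyp51, a demethylase of cholesterol synthesis, had 35.005 and 32.4 untreated, 43.7 and 40.8 at 30 Gy and 27.3 and 23.4 at 50 Gy (-0.74 ± 0.10). Chil3, a chitinase-like protein of mouse macrophages, had 0.581 and 0.650 untreated, 1.4998 and 1.73 at 30 Gy and 0.538 and 0.519 at 50 Gy (-1.61 ± 0.11). Acta2, the actin of smooth muscle and myofibroblasts, had 3.48 and 3.37, then 4.55 and 4.995, then 1.999 and 1.94 (-1.28 ± 0.11). Hmox1, the heme oxygenase, had 38.4 and 37.9, then 100.6 and 113, then 65.5 and 60.9, so that it was highest at the middle dose (-0.76 ± 0.10 between 50 and 30 Gy). Eml5, a microtubule-associated protein, had 0.480 and 0.570 at 50 Gy, against 0.631 and 8.33 at 30 Gy (-2.13 ± 0.40), so that the difference rests on 1 array at 30 Gy.

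The response of SCCVII to 50 Gy was set against the mean response of NR-S1, NFSa and #8520 to the same dose at 6 h, each against its own untreated tumours. Of 13432 genes 2237 (16.7%) responded differently, 1522 with a higher (11.3%) and 715 with a lower (5.32%) log2 difference in SCCVII. The median over genes was 0.06, and under quantile normalization the calls were 1182 higher and 949 lower. With the untreated arrays of both arms 5024 genes passed. Without 50 Gy replicate 1 the count was 1471, and without untreated replicate 1 it was 1368.

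**Figure D5:**
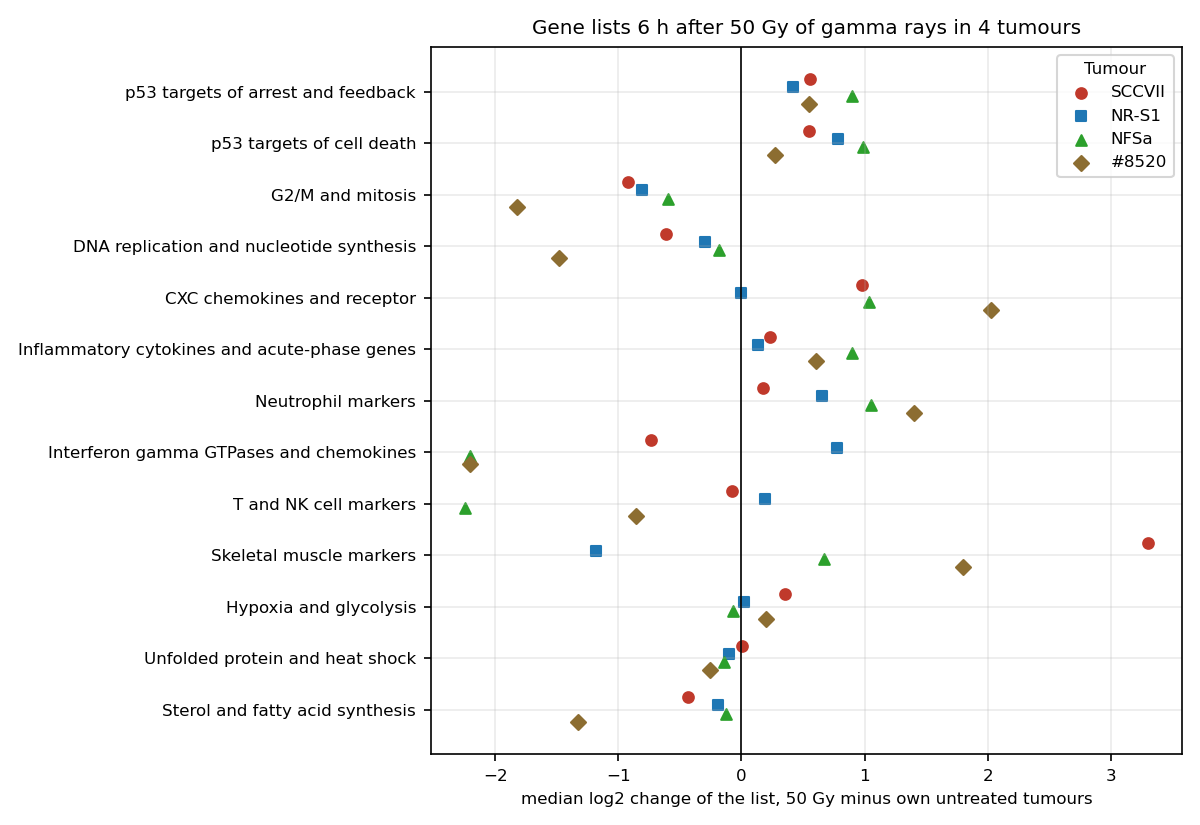
Median log2 difference of each gene list 6 h after 50 Gy of gamma rays against untreated tumours, 1 point for each tumour, with SCCVII marked apart from NR-S1, NFSa and #8520. For G2/M and mitosis the medians are -0.92 in SCCVII, -0.81 in NR-S1, -0.60 in NFSa and -1.82 in #8520, and for interferon gamma GTPases and chemokines they are -0.73, 0.77, -2.20 and -2.20.

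No difference from the other tumours was called for Cdkn1a, Mdm2 or Ccng1. Cdkn1a changed by 1.45 on the log2 scale in SCCVII, against 1.27 in NR-S1, 1.79 in NFSa and 1.34 in #8520, and its difference from their mean was -0.02 (adjusted p = 0.967). Of 36 mitotic genes 7 fell less in SCCVII and none more than in the mean of the other tumours. By the median of the list, however, only #8520 fell further than SCCVII, at -1.82 against -0.92. The medians were -0.81 in NR-S1 and -0.60 in NFSa. In #8520 37.5% of all genes were lower. Ccne2 fell further in SCCVII, by 1.80 on the log2 scale, against differences of -0.57 in NR-S1, -0.08 in NFSa and -1.61 in #8520 (difference -1.05, adjusted p = 2.86e-07). Celf5 differed by 2.42 in SCCVII, against 3.62 in NR-S1, 3.11 in NFSa and 3.11 in #8520 (difference -0.86, adjusted p = 5.82e-07).

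Of 22 unfolded protein and heat shock genes tested in this comparison 9 had a higher response in SCCVII and 1 a lower one. Hspa1a differed by 4.40 in SCCVII, against 0.22 in NR-S1, -1.53 in NFSa and 1.63 in #8520 (difference 4.29, adjusted p = 2.69e-20), and Hspb1 by 3.67, against 0.28, 0.79 and 0.98 (difference 2.99, adjusted p = 3.97e-24). Among the genes higher at 50 Gy than at 30 Gy, Abl2 differed by 2.08, against 0.09, -0.06 and 0.06 in NR-S1, NFSa and #8520 (difference 2.05, adjusted p = 2.59e-16). Adm differed by 2.10, against 0.52, -0.08 and 0.55 (difference 1.77, adjusted p = 7.67e-16), and Atf3 by 1.68, against 0.05, -0.37 and 0.06 (difference 1.77, adjusted p = 3.69e-17). In Abl2, Adm and Atf3 the differences of the other tumours lay between -0.37 and 0.55. Rgs1, a regulator of G protein signalling picked after its values were seen, was also higher at 50 Gy than at 30 Gy, by 1.73, but rose by 1.57 in SCCVII, against 1.92, 2.62 and 3.26 (difference -1.03, adjusted p = 1.1e-05). Neutrophil genes went the other way for 9 of 15 members, lower in SCCVII than in the mean of the others, with 1 higher. Cxcl2 rose by 2.39 in SCCVII, against 2.80, 3.71 and 5.18 (difference -1.50, adjusted p = 6.07e-09). G0s2, an inhibitor of fat breakdown, differed by 0.18 in SCCVII, where it did not pass, against 1.27, 3.21 and 3.33 (difference -2.43, adjusted p = 4.54e-23), and Hdc, the enzyme that makes histamine, by 0.00, against 1.31, 2.45 and 3.23 (difference -2.33, adjusted p = 1.97e-20). T and NK cell genes were higher in the SCCVII response for 13 of 18 members. Their median log2 difference was -0.08 in SCCVII, against 0.19 in NR-S1, -2.25 in NFSa and -0.86 in #8520. In NR-S1 7 of the 18 rose, where 12% of all genes rose, while 15 fell in NFSa and 14 in #8520, where 10.9% and 37.5% of all genes fell. Of 20 muscle markers 18 were higher in the SCCVII response. All 20 were higher at 50 Gy in SCCVII, while in NR-S1 all 20 were lower (14.6% of all genes), and 15 were higher in NFSa (14.5%) and 17 in #8520 (20.1%). The median intensity of the markers was 1.017 and 1.22 in untreated SCCVII, and between 19.3 and 30.0 on the untreated arrays of the other tumours.

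The response of SCCVII to 50 Gy of gamma rays differed from its response to 30 Gy of carbon ions at 6 h, each against its own arm's untreated tumours, in 1526 of 13426 genes (11.4%). The gamma response was higher for 765 genes (5.7%) and lower for 761 (5.67%). The untreated arrays of the arms differ as described above, and beam and arm cannot be told apart. The dose differs too, and values after 30 Gy of gamma rays, the dose given with carbon ions, are set beside some results. With the untreated arrays of both arms 5721 genes passed, and without carbon-ion replicate 1 the count was 974.

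At 6 h the interferon gamma list of SCCVII was opposite in the beams. After 50 Gy of gamma rays 14 of 17 fell, and after carbon ions 17 of 17 rose, where 9.89% of all genes rose. After 30 Gy of gamma rays 15 of 17 fell, with a median of -1.04, against a median of 0.98 after 30 Gy of carbon ions, a difference that was not tested. All 17 passed the test of the difference between 50 Gy of gamma rays and carbon ions, lower in the gamma response, with a median of -1.72. Cxcl10 differed by -1.39 after gamma rays, at 10.04 and 9.74 against 23.95 and 28.1 in untreated tumours of the gamma arm. After carbon ions it differed by 1.10, at 42.0 and 47.6 against 20.6 and 21.0 in untreated tumours of that arm (difference -2.49, adjusted p = 4.08e-19). For Cxcl10 the untreated tumours of the arms were close, and the irradiated ones were apart. Of the 17 members, 6 were higher and 7 lower in untreated tumours of the gamma arm than of the carbon arm, where 46.4% of all genes differed. On day 3 after 30 Gy of gamma rays all 17 were higher than in untreated SCCVII (17.2% of all genes), with a median of 0.98. In NR-S1 14 of 17 rose 6 h after 50 Gy of gamma rays, where 12% of all genes rose. Hspa1a had 73.7 and 66.9 after 50 Gy and 13.6 and 20.8 after 30 Gy of gamma rays, while after carbon ions it had 4.59 and 4.995, against 4.30 and 4.06 in that arm's untreated tumours (difference 4.20, adjusted p = 1.64e-16). Cxcl2 rose further after carbon ions, to 11.6 and 14.4, against 0.840 and 0.932 in untreated tumours of that arm (difference of the gamma from the carbon-ion response -1.48, adjusted p = 1.70e-06). Cdkn1a was not called (difference 0.36, adjusted p = 0.458).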

How the data were processed

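Total RNA of each tumour was extracted with ISOGEN and RNeasy and labelled with Cy5 by the CodeLink protocol, per the labels. The authors deposited one intensity per probe on a linear scale. How the scanner signals were background-corrected and scaled, and with which software, is not given in the sources used here. The values show array medians near 1 and a lowest value below 0, so background had been subtracted. How that step stretches or compresses differences of dim genes is unknown. No further normalization was applied.

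Of 36227 probes, 21615 had 1 gene symbol, 681 several and 13931 none. For 21487 probes the Entrez number led to a current symbol in RefSeq tables of GRCm38.p6, used for names and promoters only. Each of 18069 genes was taken from its probe with the highest mean log2 value, and 15 of the 159 genes named have several probes, of which 3 (Ighm, Jchain and Srebf1) disagree in sign. Intensities of 0 or less were treated as missing. Tests covered the 13465 genes that remained once the dimmest 25% and those with values on under 80% of arrays had been removed. The number of arrays limits the precision.

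Differences of log2 intensity were fitted by limma (version 3.58.1, R 4.3.3, and the data.table package, version 1.17.8) in a model with a mean for each of the 44 groups of 2 arrays, with 44 residual degrees of freedom. P-values are two-sided and Benjamini-Hochberg adjusted over all genes of a comparison, with a gene called under 0.05. The fit was tested on simulated data. Figures were drawn with Python 3.11.15 and matplotlib 3.10.9. Where all arrays of a group lay under the floor, a fold is a bound against the floor. A missing value left a group with 1 array in the fit.

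Genes named were the 12 that rose and the 12 that fell most against untreated tumours, and 6 each way for the other comparisons, among called genes whose groups did not overlap. Up to 4 members of each list and Cdkn1a, Mdm2, Ccng1, Plk1, Celf5, Ung and Cxcl2 were added. Predicted genes were passed over. Other list members named as examples, and genes of the check of the label, were chosen after their values were seen. The members and lists were chosen with earlier results of these data known. The alternatives were other normalizations, offsets, filters, probe rules, array sets, priors, untreated arms and a replicate block, and leaving out each array.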

Additional observations from a re-analysis of the deposited data

Results flagged for a closer look

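The results in this section differed between tumours under the same contrast, the response to 50 Gy of gamma rays at 6 h, by limma's test of the difference between SCCVII and the mean of NR-S1, NFSa and #8520. Over all genes 2237 of 13432 (16.7%) passed. Of the 53 genes named through a comparison or added by name 36 passed. Some of them were picked by this same test or by the SCCVII response that enters it, so that this count is no result about them. The value in brackets is the SCCVII response minus the mean of the other tumours on the log2 scale.

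Genes of muscle and of the tissue around it with a higher response were Pvalb (4.55), Tnnt3 (4.36), Tnnc2 (4.23), Thbs4 (4.11), Hjv (3.89), Pgam2 (3.84), Cox8b (3.62), Mybpc2 (3.57), Ckm (3.33), Xirp1 (2.91) and Myl1 (2.69). Tekt1 lay under the floor of measurement on both untreated SCCVII arrays, and its difference was at least 0.17. The median intensity of 20 muscle markers was 10.3 and 10.1 in SCCVII at 50 Gy, against 1.02 and 1.22 in its untreated tumours, 8.69 and 9.14 against 26.5 and 26.4 in NR-S1, 30.1 and 29.8 against 20.04 and 19.3 in NFSa, and 112 and 120.7 against 20.5 and 30.0 in #8520. Of these arrays the untreated SCCVII arrays were the lowest, while the untreated arrays of the other tumours lay between 19.3 and 30.0. The cause was not tested.

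Other genes that responded more, or fell less, in SCCVII were Hspa1a (4.29), Edn2 (at least 2.07), Abl2 (2.05), Adm (1.77), Ccrl2 (1.71), S100a9 (1.52), Gzmf (1.01) and Plk1 (0.37). Those with a lower response in SCCVII were G0s2 (-2.43), Hdc (-2.33), Rab44 (-2.04), Ggt6 (-1.76), Syce1 (-1.75), Fam180a (-1.36 or lower), Cxcl2 (-1.50), Cpa3 (-1.40), Cma1 (-1.38), Eefsec (-1.23), Cd209a (-1.07), Ccne2 (-1.05), Celf5 (-0.86), Acta2 (-0.66), Fam83d (-0.55) and Chil3 (-0.40). Edn2 at 50 Gy and Fam180a in untreated tumours lay under the floor in #8520, so that their values are bounds. Ccrl2 rests on 1 untreated SCCVII array, since the other gave no value. Of the 106 genes named only through a list 51 differed, 33 with a higher and 18 with a lower response in SCCVII. Over all genes 11.3% were higher and 5.32% lower. These members were picked for the size of their SCCVII change at 50 Gy, which enters this test, so the counts are no result about them.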

How the results depend on the processing

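The comparison of 50 Gy with untreated tumours kept its count within 1.5 times the 3084 genes under all of its 17 alternatives but 1. That exception, chosen after seeing the data, took the untreated arrays of the carbon arm in place of those of the gamma arm and called 6381 genes, and with both arms 4433 genes were called. Leaving out each array in turn gave 2067 to 2477 genes. Of 130 named genes called, 82 kept their direction and call against the carbon arm's untreated arrays alone, 14 kept only their direction and 34 reversed. The reversed log2 differences were Acly 0.0050, Apoe -0.056, Car3 -1.33, Cox8b -0.050, Eefsec 0.92, Egr1 0.23, Gsr 0.28, Gzma 0.60, H2ax 0.65, Hjv -0.77, Ifit2 0.022, Ino80b 0.43, Krt19 -1.32, Lox -0.89, Mfap5 -1.08, Mkrn2 0.39, Mmp13 -0.38, Mmp23 -0.73, Mybpc2 -1.09, Neil2 -0.23, Nqo1 0.47, Pgam2 -0.87, Postn -0.0040, Pvalb -0.11, Rnf8 0.54, Rpl11 -0.47, Rpl5 -0.32, Rpl7 -0.37, Srebf1 0.21, Tekt1 -0.40, Thbs4 -0.22, Tnnc2 -0.41, Trp63 -1.13 and Txn1 -0.30. With the untreated arrays of both arms the reversed values were Krt19 -0.023, Nqo1 0.040, Rnf8 0.064, Rpl11 -0.049 and Rpl7 -0.011, and in the difference from carbon ions Ino80b 0.24, Mybpc2 -0.053 and Pgam2 -0.33. The cause was not tested.

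Between 50 and 30 Gy the count of 1033 became 673 with the dimmest 50% of genes left out, which tests fewer genes, 500 with only the arrays compared, and 563 to 966 without each array in turn. Between tumours 2237 became 5024 with the untreated arrays of both arms and 1368 to 2119 without each array. Between beams 1526 became 951 with the dimmest 50% left out, 873 with only the arrays compared, 5721 with both untreated arms and 974 to 1445 without each array. Between the untreated arms 6239 became 4009 with the dimmest 50% left out and 4868 to 5455 without each array. Leaving out an array that leaves 1 in a group assumes that the lone array varies like the other groups.

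The labels do not say that replicate numbers pair the arrays. Deviations of same-numbered arrays correlated at -0.078 between 50 Gy and untreated tumours, at 0.049 between 50 and 30 Gy and at 0.39 between 30 Gy and untreated tumours. For 30 Gy against untreated tumours a block, chosen after seeing the data, gave 2300 calls in place of 2112 and left the counts of lower T and NK cell, hypoxia, interferon gamma and granzyme genes as they were. With the replicate number as a block the counts were 3250 against untreated tumours, 1168 between doses, 2485 between tumours, 1660 between beams and 6558 between untreated arms. None of the 130 named genes called against untreated tumours lost its call. Named genes that had not been called were not followed. Among counts of list members, 32 of 64 moved by over 1.5 times with the carbon arm's untreated arrays alone, 25 with both arms, 17 with the dimmest 50% left out, 11 to 14 without each array in turn, 9 with quantile normalization and 7 or fewer under each other alternative. Differences of probes near the floor of 0.134 are the least certain.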

Other observations

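Genes of killer cell granules differed between the groups of the gamma arm without following the order of the doses. The 10 granzyme and perforin genes were picked after their values were seen, and 7 of them were tested. Against untreated tumours 1 was higher and 1 lower at 50 Gy, with a median log2 difference of -0.004. At 30 Gy all 7 were lower, where 6.48% of all genes were lower, with a median of -1.46. All 7 were higher at 50 Gy than at 30 Gy, where 4.99% of all genes were higher, with a median of 1.49. Gzmf, a granzyme of mouse killer cells, had 30.7 and 35.4 untreated, 12.6 and 12.8 at 30 Gy and 54.9 and 49.1 at 50 Gy. Gzma had 20.4 and 20.4, then 5.49 and 6.46, then 10.3 and 10.9 at 0, 30 and 50 Gy. Each of the 7 was lower in untreated tumours of the carbon arm than in those of the gamma arm. There Gzmf had 8.19 and 6.91, below its values at 30 Gy, so that its fall at 30 Gy rests on the untreated arrays of the gamma arm. In the carbon arm's untreated tumours Gzma had 6.62 and 7.43 and Prf1 2.14 and 2.07. Prf1 had 1.07 and 1.31 at 30 Gy, so that Gzma and Prf1 were lower after 30 Gy than in untreated tumours of either arm. The difference from the carbon arm's untreated tumours was not tested. What separates these groups was not tested.

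Mast cell genes, also picked after their values were seen, were lower at 50 Gy for 6 of 10 tested, with none higher and a median of -0.43. Against untreated tumours 9.71% of all genes were lower. Cpa3, the carboxypeptidase of mast cells, had 1.81 and 1.97 at 50 Gy, against 5.62 and 5.27 in untreated tumours (-1.53 ± 0.10), and the chymase Cma1 had 2.69 and 2.88, against 6.33 and 6.98. The tryptase Tpsb2 did not pass the test, with 15.01 and 13.5 at 50 Gy and 14.9 and 15.1 in untreated tumours. After 30 Gy of carbon ions 5 of the 10 were higher than in that arm's untreated tumours and none lower. Over all genes 9.89% were higher there.

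Other genes picked after their values were seen were higher at 50 Gy than at both other doses. Pgf, a growth factor of vessels, had 0.820 and 0.698 untreated, 0.731 and 0.735 at 30 Gy and 2.01 and 1.94 at 50 Gy. Alas2, the heme synthesis enzyme of red cell precursors, had 0.568 and 0.534, then 1.01 and 1.05, then 3.59 and 3.52. Ppp1r15a, a stress-induced phosphatase subunit, had 3.99 and 4.11, then 3.74 and 4.55, then 8.93 and 9.51 at 0, 30 and 50 Gy.

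A few probes split into low and high arrays. Ino80b, a subunit of a chromatin remodeller, had 2.11 and 2.48 at 50 Gy, against 25.6 and 26.5 in untreated tumours of the gamma arm, a log2 difference of -3.51 ± 0.73, and 28.9 and 2.46 on the arrays of 30 Gy. Over the 83 arrays of the study with a value, none lay between 3.15 and 10.9, and 14 lay above, all of the gamma arm. In 6 groups only 1 of the 2 arrays lay above. Mkrn2, with a log2 difference of -1.68 at 50 Gy, had 7 arrays above a gap between 7.81 and 11.9, each in a group whose other array was not above it. Eefsec, with a difference of -1.51, had 11 arrays above a gap between 1.98 and 3.08, and in only 1 group was 1 of the 2 arrays above, so that it split mostly between groups.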
